A study of Mus musculus with 46 samples.

Results

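The genes described here are 10 protein-coding genes of the mouse mitochondrial genome, mt-Nd1, mt-Nd2, mt-Nd3, mt-Nd4, mt-Nd5, mt-Nd6, mt-Co1, mt-Co2, mt-Co3 and mt-Cytb. They were chosen by name, joined by symbol to the Ensembl identifiers of the count files, and are 10 of the 55487 identifiers counted and 10 of the 13 protein-coding genes of that genome. All 10 passed the expression filter in both organs. They were followed across all 46 polyA RNA libraries.

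Wild-type C57BL/6 mice were fed a high-fat diet for 21 weeks from 7 weeks of age. From week 16 of the diet they received subcutaneous PBS (the vehicle) or PTP-r at 1 mg per kg per day for 5 weeks. The series title concerns a mixed-chirality prohibitin peptide, and no label spells out the code name PTP-r. Libraries came from liver and from white adipose tissue (WAT, depot not named) of both sexes, which gave 8 groups of 6 libraries, except male vehicle with 5 in each organ. Every group, vehicle included, had the diet. Whether each library stands for its own mouse is not given in the labels, so the tests reflect variation among libraries, which may be technical.

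Mitochondrial DNA is a small circle kept in many copies per cell. Its genes are transcribed as long RNAs that are cut at the tRNAs lying between the protein-coding genes, and the resulting messages are given short poly(A) tails. The proteins form the core of the respiratory chain, the machinery that passes electrons to oxygen and pumps protons: mt-Nd1 to mt-Nd6 encode membrane subunits of complex I (NADH dehydrogenase), mt-Cytb encodes cytochrome b of complex III, and mt-Co1 to mt-Co3 encode the core of complex IV (cytochrome c oxidase). Apart from mt-Nd4l of complex I, which is not among the 10, the other subunits of these complexes come from nuclear genes. Prohibitins 1 and 2, the proteins in the series title, form ring-shaped scaffolds in the inner mitochondrial membrane.

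The 3′ ends of the genes are shown first, because polyA RNA was sequenced and because the ends differ in whether the DNA itself encodes a stop codon. The last 30 bases of each gene (GRCm38, GENCODE M21) are given 5′ to 3′ on the gene's own strand, with the stop codon, or the part of it that the DNA holds, in capitals.
mt-Nd1 (chrM:3678-3707, plus strand): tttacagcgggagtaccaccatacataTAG
mt-Nd2 (chrM:4922-4951, plus strand): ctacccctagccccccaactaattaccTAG
mt-Nd4 (chrM:11515-11544, plus strand): gtccaaaactaattacaggcctgacaataT
mt-Nd5 (chrM:13536-13565, plus strand): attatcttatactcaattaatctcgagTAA
mt-Nd6 (chrM:13552-13581, minus strand): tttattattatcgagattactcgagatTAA
mt-Cytb (chrM:15259-15288, plus strand): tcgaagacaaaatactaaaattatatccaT
mt-Co1 (chrM:6843-6872, plus strand): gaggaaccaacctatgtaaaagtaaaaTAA
mt-Co3 (chrM:9361-9390, plus strand): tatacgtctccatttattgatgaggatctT
The genes mt-Nd4, mt-Cytb and mt-Co3 ended in a lone T, which the added poly(A) tail completes to a stop codon. The other members, mt-Nd3 and mt-Co2 included, ended in a complete TAG or TAA. The genes mt-Nd5 and mt-Nd6 lie on opposite strands and overlap by 14 bases at their 3′ ends. Of the members, mt-Nd6 alone is on the minus strand.

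The second set of sequences shows which members cannot be told apart from nuclear DNA by a short read. A stretch of mitochondrial DNA has been copied into nuclear chromosome 1, where 7 annotated genes lie between positions 24611535 and 24616197 on the minus strand. Reads that fit both places equally well were set aside as multimapping and not counted for any gene. The first 61 aligned bases of 3 pairs are given 5′ to 3′ (GRCm38, GENCODE M21), with differing bases in capitals.
mt-Nd3 (chrM:9459-9519, plus strand): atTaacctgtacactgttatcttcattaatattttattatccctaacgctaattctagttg
Gm28438 (chr1:24613059-24613119, minus strand): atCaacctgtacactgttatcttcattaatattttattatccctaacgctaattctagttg
mt-Co1 (chrM:6390-6450, plus strand): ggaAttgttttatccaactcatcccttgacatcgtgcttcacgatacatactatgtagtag
Gm29216 (chr1:24616128-24616188, minus strand): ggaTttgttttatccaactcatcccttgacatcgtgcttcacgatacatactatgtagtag
mt-Co2 (chrM:7013-7073, plus strand): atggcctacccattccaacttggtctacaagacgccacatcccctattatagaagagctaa
Gm28661 (chr1:24615505-24615565, minus strand): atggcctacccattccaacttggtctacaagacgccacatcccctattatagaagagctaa
Counted from 1 at the gene's first base, the copy of mt-Nd3 carried 1 substitution, T3C, in 345 aligned bases. The copy of mt-Co1 covered positions 1063 to 1545 with 1 substitution, A1066T. Over their whole aligned lengths of 681, 783 and 876 bases, the copies of mt-Co2, mt-Co3 and mt-Nd4 had no difference.

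Split into all words of 50 bases, mt-Co2 shared 100% of its words with annotated nuclear genes, mt-Co3 shared 99.9% and mt-Nd3 shared 98.0%. In mt-Nd4 the share was 62.2% and in mt-Co1 it was 51.1%. It was 8.19% in mt-Nd2 and 7.61% in mt-Nd5, and mt-Nd1, mt-Nd6 and mt-Cytb shared none. With words of 100 bases, the share was 60.8% in mt-Nd4, 30.8% in mt-Co1, 3.19% in mt-Nd2 and 0% in mt-Nd5. For mt-Co2, mt-Co3 and mt-Nd3 it was still at least 97.6%. The values of mt-Co2, mt-Co3 and mt-Nd3 are therefore uncertain as levels, and those of mt-Nd4 and mt-Co1 rest on part of each gene. The copies themselves drew reads: the median level of Gm28661 was 21.6 CPM (the standard count unit scaled to the library's total on genes) in liver and 18.7 in WAT, beside 22.1 and 19.8 CPM for mt-Co2, with which it shares its sequence. Gm29216, the copy of the end of mt-Co1, had medians of 54.9 CPM in liver and 51.6 CPM in WAT.

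Per kilobase of exon, mt-Co1 was the most abundant member in both organs, at 12451 ± 961 CPM per kilobase in liver (SD, n = 23) and 10132 ± 3252 in WAT (SD, n = 23). It was followed by mt-Cytb, at 9326 ± 934 in liver and 7642 ± 2789 in WAT. The complex I genes came next: mt-Nd2 had 6733 ± 881 in liver and 4226 ± 1200 in WAT, and mt-Nd1 had 6037 ± 624 and 5121 ± 1308. The liver means of mt-Nd4 (3475 ± 314) and mt-Nd5 (3163 ± 412) stood below these. In WAT they were 2799 ± 886 and 2750 ± 767. The whole gene length was used, although 62.2% of 50-base words in mt-Nd4 and 51.1% in mt-Co1 are shared with nuclear genes. The levels of these genes may therefore be too low, and the place of mt-Nd4 in this order is uncertain. Within liver, mt-Nd2 and mt-Nd1 differed by less than the larger SD, as did mt-Nd4 and mt-Nd5. In WAT the same held for each step from mt-Co1 to mt-Cytb, mt-Nd1 and mt-Nd2 and for mt-Nd4 and mt-Nd5, while the step from mt-Nd2 to mt-Nd4 exceeded it. These SDs are spreads over libraries of all groups, and they do not measure the order of genes within a library. In single WAT libraries, mt-Cytb had 455 to 607 counts per 1000 of mt-Co1, and the ratio of mt-Nd2 to mt-Nd1 counts was 0.700 to 0.994. Per kilobase, too, mt-Co1 exceeded mt-Cytb and mt-Nd1 exceeded mt-Nd2 in every WAT library. Far below were the members with near-complete nuclear copies. Per kilobase, mt-Co2 had 34.2 in liver and 33.6 in WAT, mt-Co3 had 21.2 and 17.5, and mt-Nd3 had 6.09 and 4.83.

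**Figure D1:**
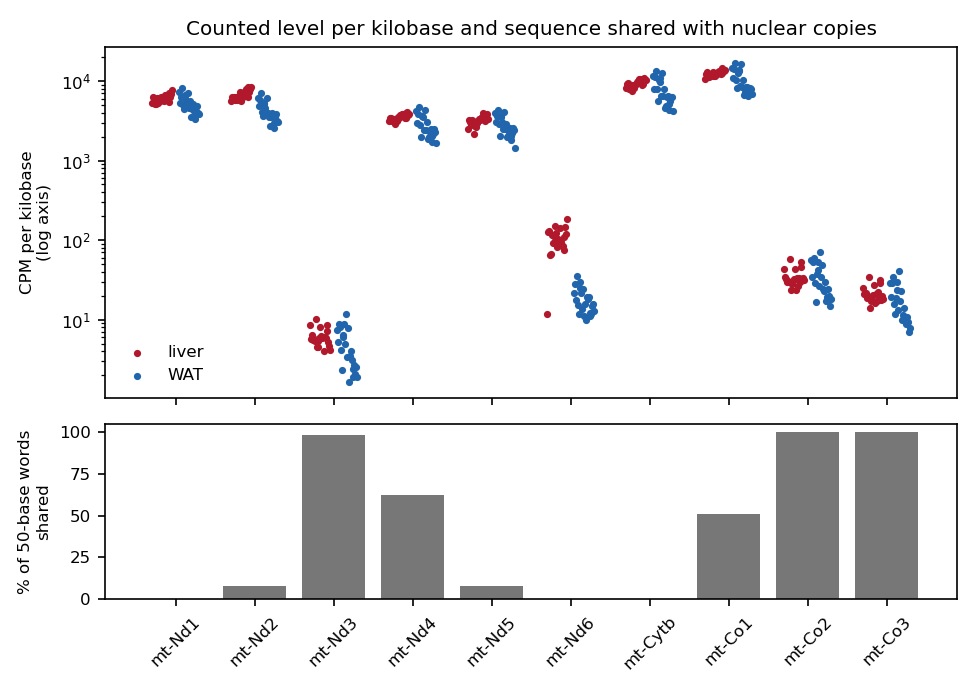
Level of each member per kilobase in every library (upper panel, CPM per kilobase, log axis, one point per library, liver and WAT side by side) and the percentage of its 50-base words found in annotated nuclear genes (lower panel). The 3 members with at least 98.0% of words shared, mt-Nd3, mt-Co2 and mt-Co3, have the lowest levels in liver, and mt-Nd6 shares none but is also low.

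The members' counts kept a similar make-up in both organs, with 2 exceptions. The gene mt-Co1 took on average 36.1% of the counts of all members in liver and 36.7% in WAT (means of 23 libraries each). The corresponding medians of mt-Cytb were 19.9% and 20.2%. The ratio of mt-Nd2 to mt-Nd1 counts, however, was 1.21 ± 0.0891 in liver (range 1.07 to 1.38) and 0.891 ± 0.0606 in WAT (range 0.700 to 0.994). These ranges did not overlap. The other exception was mt-Nd6, which took a median of 0.102% of member counts in liver and 0.0212% in WAT.

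The gene mt-Nd6 encodes a complex I subunit, and its template strand differs from that of the other members. Its human counterpart is known for an RNA that lacks a poly(A) tail. Of the reads that fell on mt-Nd6 by strand, 2.76% (range 0.405% to 5.10%) lay on the gene's own strand in liver and 0.584% (range 0.400% to 0.870%) in WAT. All other members had at least 95.2% of their reads on their own strand in every library. The level on the opposite strand of mt-Nd6, 3692 CPM per kilobase in liver and 3072 in WAT, was close to that of its neighbour mt-Nd5. The ratio of the 2 was 1.17 ± 0.0642 in liver and 1.12 ± 0.0461 in WAT (SD, n = 23 each). Counts that ignore strand would thus describe mt-Nd6 almost entirely by RNA of the other strand.

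On its own strand, mt-Nd6 had 104 ± 35.1 CPM per kilobase in liver and 18.1 ± 6.81 in WAT (SD, n = 23 each). One liver library, female PTP-r 1, had 11.8, which was within the WAT range, while every other liver library lay at 65.5 or above. Pancreas markers summed to 385 CPM in that library, against at most 48.3 CPM in any other liver library, with all 8 above 0. Their part in the low mt-Nd6 value was not tested. Reads on the minus strand past the 3′ end of mt-Nd6 were also higher in liver: opposite to mt-Nd5 they averaged 57.8 CPM per kilobase in liver and 12.4 in WAT, and opposite to mt-Nd4 21.8 and 8.11. Opposite to mt-Nd1 and mt-Co1, farther upstream on the plus strand, liver was not the higher organ (means 2.20 against 3.50, and 1.76 against 3.09), nor was it opposite to mt-Cytb, on the other side of mt-Nd6 (4.80 against 6.91). Opposite to mt-Nd2 the means were 4.07 in liver and 3.98 in WAT, closer than either SD.

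**Figure D2:**
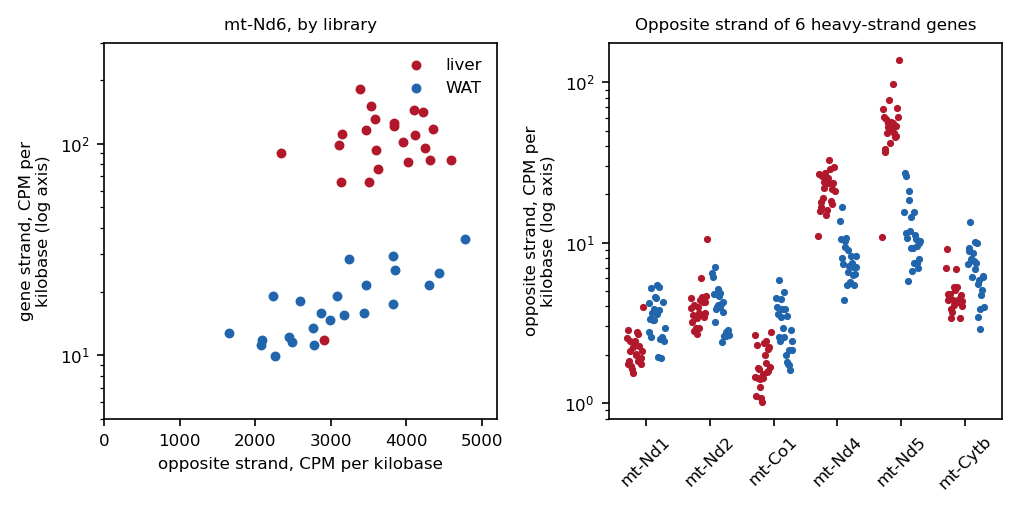
Left, level of mt-Nd6 on its own strand (vertical, log axis) against the level on the opposite strand (horizontal), both in CPM per kilobase, one point per library. Right, level on the opposite strand of 6 plus-strand genes in gene order (log axis); liver lies above WAT for mt-Nd5 (means 57.8 and 12.4) and mt-Nd4 (21.8 and 8.11) but not for mt-Nd1, mt-Co1 or mt-Cytb, and mt-Nd2 is similar in both (4.07 and 3.98).

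Summed over the 10 members, the share of all counts on genes ran from 4.52% to 6.16% in liver (median 5.26%) and from 2.64% to 7.08% in WAT (median 3.70%). The group means fell in the order liver male vehicle (5.94% ± 0.177), WAT female PTP-r (5.85% ± 1.02), liver male PTP-r (5.53% ± 0.292) and liver female vehicle (5.10% ± 0.254). These were followed by liver female PTP-r (4.87% ± 0.241), WAT female vehicle (4.44% ± 1.00), WAT male PTP-r (3.30% ± 0.635) and WAT male vehicle (3.29% ± 0.404). The errors are SDs over 6 libraries, or 5 in male vehicle. Between neighbours in this order, only the steps from liver male PTP-r to liver female vehicle and from WAT female vehicle to WAT male PTP-r exceeded the larger SD. Fewer cells of a type and less RNA per cell cannot be told apart in such bulk samples.

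**Figure D3:**
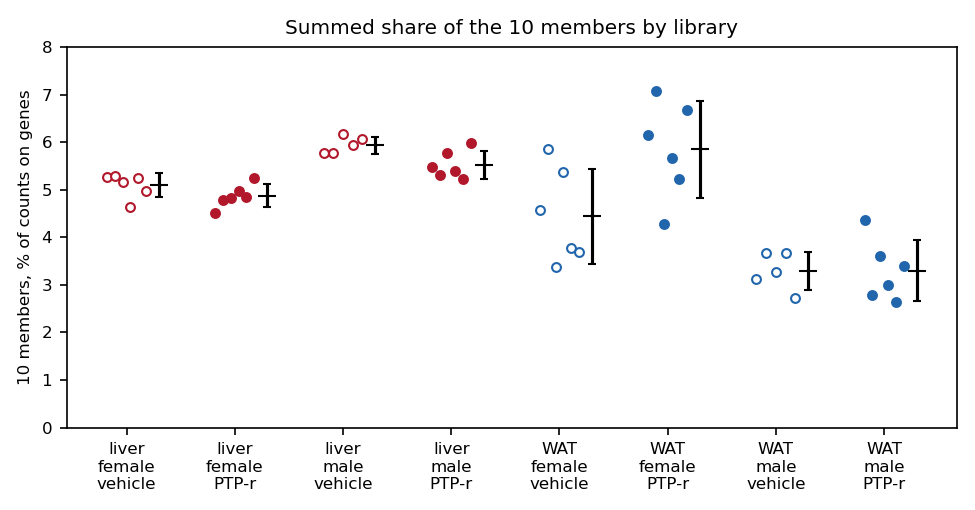
Share of all counts on genes taken by the 10 members in each library (points; vertical axis in %, starting at 0), with group mean and SD. Liver groups sit between 4.52% and 6.16%, WAT females spread from 3.38% to 7.08%, and WAT males lie between 2.64% and 4.36%.

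The first comparison asked whether PTP-r changed these genes in liver. In females, PTP-r and vehicle libraries overlapped for all 10 members, where 0.724% of all genes showed no overlap, and 9 of 10 fitted log2 differences were below 0 with a median of -0.08. None passed edgeR's quasi-likelihood test with Benjamini-Hochberg adjustment over all 15892 genes tested, where 0.164% of genes did. The count was also 0 of 10 at an unadjusted p under 0.05, which 8.67% of genes had, and with DESeq2 and limma voom. The 95% confidence intervals of mt-Nd4 (-0.13 to 0.10) and mt-Co1 (-0.20 to 0.02) were the narrowest, and that of mt-Nd6 (-1.17 to 0.11) was the widest.

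In male livers, 7 of 10 fitted differences were below 0, with a median of -0.13 against 0.00289 over all genes. The complex I gene mt-Nd4 stood at 5411, 5415, 5521, 5696 and 6006 CPM (scaled by trimmed mean of M values) in the vehicle libraries and at 4644, 5214 and 5309 (lowest, median and highest of 6) with PTP-r. All PTP-r libraries were below all vehicle libraries. The log2 difference was -0.15 (SE 0.0577, adjusted p = 0.132 in edgeR's test). Cytochrome b (mt-Cytb) showed the same separation, with 12263, 12328, 12378, 12664 and 13383 CPM under vehicle and 10431, 11572 and 12253 with PTP-r (log2 difference -0.15, SE 0.0649, edgeR adjusted p = 0.167). Such separation occurred in 2 of 10 members and in 5.84% of all genes.

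Of the remaining members in male liver, mt-Nd1 had a log2 difference of -0.20 (SE 0.0749, edgeR adjusted p = 0.115) and mt-Co1 one of -0.14 (SE 0.0571, edgeR adjusted p = 0.136), and the libraries of both groups overlapped. The largest fitted difference was that of mt-Nd6, which had 50.9, 60.5, 74.7, 80.4 and 97.9 CPM under vehicle and 39.04, 47.4 and 62.8 (lowest, median and highest of 6) with PTP-r. Its groups overlapped, and its log2 difference was -0.57 (SE 0.321, edgeR adjusted p = 0.337). It was called with only these 2 groups fitted (edgeR adjusted p = 0.0445) and without the libraries with markers of other tissues (0.0455). The liver libraries left out for such markers were all female, so the male libraries were unchanged and only the shared fit differed. Over 23 alternatives the adjusted p of mt-Nd6 lay between 0.0445 and 0.922. These include unstranded counts, which describe mt-Nd6 almost entirely by RNA of the other strand. No member passed edgeR's test, which 7.68% of genes passed, while 4 of 10 had an unadjusted p under 0.05 as had 20.7% of all genes. DESeq2 called 3 members lower, mt-Nd1, mt-Nd4 and mt-Co1 (adjusted p = 0.0443, 0.0387 and 0.0251), and limma voom called mt-Nd4 (adjusted p = 0.0447). Without male PTP-r library 11, edgeR called mt-Nd1 (adjusted p = 0.0499). Alongside, 3 of 8 macrophage markers were higher and 5 of 8 endothelial markers lower in male liver with PTP-r. Summed macrophage markers ran from 84.7 to 158 CPM under vehicle and from 132 to 280 CPM with PTP-r, and endothelial markers from 112 to 143 and from 88.0 to 107 CPM. Their part in the members' values was not tested.

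Averaged over both sexes in liver, mt-Co1 came nearest to the threshold, with a log2 difference of -0.12 (SE 0.0394, edgeR adjusted p = 0.0706). It passed with DESeq2 (adjusted p = 0.00655) and with limma voom (adjusted p = 0.0368). The edgeR count was 0 of 10 members against 7.58% of all genes, with 4 members and 21.5% of genes at an unadjusted p under 0.05, and DESeq2 and voom each called 2. The log2 difference of mt-Nd6, -0.55 (SE 0.223, edgeR adjusted p = 0.145), was the largest. EdgeR called 1 member without female PTP-r library 1 or 11 or female vehicle library 12. The female and male responses were compared directly in an interaction term, which no member passed in edgeR, DESeq2 or voom, against 0.107% of all genes in edgeR. At an unadjusted p under 0.05 there were 0 of 10 members and 9.99% of genes.

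The second comparison asked the same of WAT. In females, all 10 fitted differences were above 0, from 0.26 in mt-Nd2 to 0.64 in mt-Co3, with a median of 0.42 against 0.00904 over all genes. The gene mt-Co1 stood at 13114, 15400 and 24099 CPM (lowest, median and highest of 6) under vehicle and at 15557, 22508 and 27850 with PTP-r. For mt-Cytb the values were 6625, 8504 and 13884 CPM under vehicle and 8941, 13269 and 16018 with PTP-r. The medians were higher with PTP-r, yet the groups overlapped for every member, where 1.25% of all genes showed no overlap. The log2 differences were 0.40 (SE 0.169, edgeR adjusted p = 0.242) for mt-Co1 and 0.44 (SE 0.201, edgeR adjusted p = 0.283) for mt-Cytb. No member passed edgeR's test and no gene at all did (0% of 17765), while 5 of 10 members and 16.4% of genes had an unadjusted p under 0.05. DESeq2 and limma voom each called 0 members.

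Brown adipocyte markers stood apart in 2 of the female PTP-r libraries. In WAT female PTP-r libraries 1 and 4 they summed to 613 and 635 CPM, against 24.1 to 39.1 CPM in the other 4 and 9.89 to 27.7 CPM under female vehicle. Ucp1, the uncoupling protein that defines brown and beige fat cells, had 8897 and 11122 counts in those 2 libraries and at most 110 counts in any other WAT library. The members' summed share was 6.16% and 7.08% in libraries 1 and 4, and 6.67% in female PTP-r library 11, where Ucp1 had 2 counts. Without libraries 1 and 4, the members' median log2 difference was 0.32, and mt-Co1 had 0.32 (edgeR adjusted p = 0.529). The part of brown adipocytes in the members' values was not tested.

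Other tissue markers also differed among the female WAT libraries. Skeletal muscle markers summed to 1048 CPM in PTP-r library 1, which was among the 2 with brown adipocyte markers, and to 329 CPM in PTP-r library 5, against at most 144 CPM under vehicle. Macrophage markers, with at least 7 of 8 above 0 in every library, summed to 366 to 840 CPM with PTP-r and to 523 to 1274 CPM under vehicle. Hepatocyte markers summed to 1395 to 4259 CPM with PTP-r and to 982 to 2465 CPM under vehicle. Their part in the members' values was not tested.

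In male WAT the fitted differences were spread around 0, with 5 above and 5 below and a median of 0.0194. The gene mt-Co1 had 10416, 10999, 11704, 12564 and 12789 CPM under vehicle and 9187, 11631 and 14477 (lowest, median and highest of 6) with PTP-r. The PTP-r libraries thus lay on both sides of the vehicle libraries, and the log2 difference was -0.01 (95% confidence interval -0.37 to 0.36). No member passed with edgeR, DESeq2 or voom, against 0.873% of all genes in edgeR. At an unadjusted p under 0.05 there were 0 of 10 members and 20.8% of genes. The median rested on 1 library: without male PTP-r library 1 it was -0.20.

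Averaged over the sexes, the WAT median was 0.21, and edgeR, DESeq2 and voom called 0 members against 7.08% of genes in edgeR. At an unadjusted p under 0.05 there were 0 of 10 members and 27.1% of genes. The test of the female against the male response in WAT gave a median of 0.46, and 0 members in edgeR, DESeq2 and voom, and 0% of all genes in edgeR, were called. At an unadjusted p under 0.05 there were 2 of 10 members and 8.56% of genes. For the liver response minus the WAT response, all 10 fitted values were below 0, with a median of -0.35 against -0.0552 over all genes. EdgeR and DESeq2 called 0 of 10 and limma voom called 3, against 5.39% of all genes in edgeR. At an unadjusted p under 0.05 there were 3 of 10 members and 21% of genes. The smallest edgeR adjusted p in that comparison was 0.163.

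**Figure D4:**
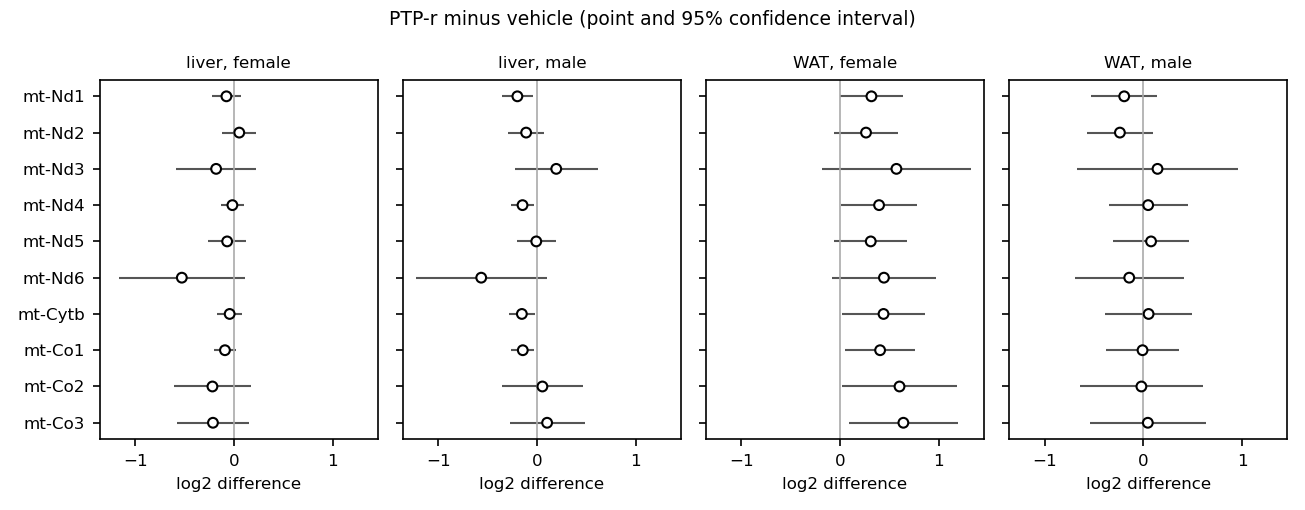
Log2 difference of PTP-r minus vehicle for each member (points) with its 95% confidence interval (lines) in the 4 combinations of organ and sex. Open points did not pass edgeR's adjusted threshold of 0.05, and every point is open; the medians are -0.08 in female liver, -0.13 in male liver, 0.42 in female WAT and 0.02 in male WAT.

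The sexes were compared under vehicle. Among the vehicle libraries of each organ, the S numbers in the titles form separate blocks for females and males. The labels do not say what these numbers stand for. Sex cannot be told apart from any order of handling that follows them. In liver, 6 of 10 members were lower in females than in males, the same 6 whose libraries did not overlap between the sexes. For calls in that direction the share of all genes was 17.4%, and ranges did not overlap in 18.8% of genes. The members called were 4 complex I genes, cytochrome b and the catalytic subunit of complex IV. They are the members with the highest levels per kilobase. The other 4 are the low members mt-Nd3, mt-Nd6, mt-Co2 and mt-Co3, whose confidence intervals were wider.

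Among the complex I genes, mt-Nd2 showed the largest fitted difference. It stood at 7206, 7603, 8114, 9112 and 9152 CPM in male vehicle livers and at 5608, 6179 and 6521 CPM (lowest, median and highest of 6) in female ones. Every female library lay below every male library, with a log2 difference of -0.43 (SE 0.0865, edgeR adjusted p = 0.000439). The gene mt-Nd4 had the male values given above, and 3831, 4430 and 4724 CPM in females. Its groups did not overlap either, and its log2 difference was -0.36 (SE 0.0576, edgeR adjusted p = 4.64e-05). Male livers had 6240.0, 6435, 6526, 7066 and 7561 CPM of mt-Nd1 and females had 4899, 5554 and 5988. This was a log2 difference of -0.30 (SE 0.0749, edgeR adjusted p = 0.00302), again with no overlap. For mt-Nd5 the males had 6214, 6301, 6599, 6670 and 6884 CPM and the females 3841, 5478 and 5932. The lowest female, library 7, was set apart from the other females, and the log2 difference was -0.31 (SE 0.0956, edgeR adjusted p = 0.0131).

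Cytochrome b and mt-Co1 moved by similar amounts. Female vehicle livers had 8386, 9877 and 10635 CPM of mt-Cytb, all below the male values given above, a log2 difference of -0.37 (SE 0.0649, edgeR adjusted p = 0.000132). For mt-Co1, male livers had 20509, 21229, 22081, 23090 and 23561 CPM and female livers had 16839, 18387 and 19449, a difference of -0.27 (SE 0.0570, edgeR adjusted p = 0.000825). Here too no female library reached the male range. The differences of the remaining members lay between -0.32 for mt-Nd6 and 0.24 for mt-Nd3.

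Cell type markers differed between these livers as well. All 8 macrophage markers were higher in females, with sums of 210 to 371 CPM against 84.7 to 158 CPM in males, and so were all 7 B and plasma cell markers tested (26.6 to 306 against 14.5 to 24.6 CPM). Of 8 endothelial markers 4 were higher in females, with sums of 151 to 198 CPM against 112 to 143 CPM in males. The share of all genes called higher in female liver is not given here. Of 8 hepatocyte markers, Apoa1, Ttr and Apoa2 were lower in females and Fgb was higher, with a median log2 difference of -0.07. Their sum went the other way, with 116869 to 124069 CPM in female and 105899 to 114342 CPM in male vehicle livers, and most of it was albumin (Alb), which did not pass the test (0.07, edgeR adjusted p = 0.397). Their part in the members' values was not tested. The call count was 6 of 10 without any 1 vehicle library or without the libraries with markers of other tissues, and 5 when libraries were scaled by their totals alone, where mt-Nd5 was lost (adjusted p = 0.0624).

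In WAT the direction was the opposite. All 10 fitted differences were above 0, with a median of 0.53, and 4 of 10 members were higher in females, against 13.6% of all genes in that direction. The called members were mt-Nd5, mt-Co1, mt-Co3 and mt-Cytb. For mt-Co1, the female values of 13114, 15400 and 24099 CPM all lay above the highest male value of 12789 CPM, with a log2 difference of 0.53 (SE 0.178, edgeR adjusted p = 0.0309). It was the 1 member whose libraries did not overlap, against 19.4% of all genes.

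The libraries of the other 3 overlapped. Male WAT had 4743, 5367, 6465, 6971 and 7220 CPM of mt-Cytb against 6625, 8504 and 13884 in females, a difference of 0.63 (SE 0.212, edgeR adjusted p = 0.0319). For mt-Nd5 male WAT had 2573, 3645, 4112, 4115 and 4649 CPM and female WAT 3855, 5135 and 7192, a difference of 0.51 (SE 0.187, edgeR adjusted p = 0.0448). The lowest females lay within the male range in both genes. The difference in mt-Co3 was 0.83 (SE 0.285, edgeR adjusted p = 0.0352), and that gene is uncertain because of its nuclear copy.

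These WAT calls depended on single libraries. The count of 4 became 0 without female vehicle library 3 or 7 or without male vehicle library 3 or 12. It became 1 without female vehicle library 2 or male vehicle library 9, and 7 without female vehicle library 6. Macrophage markers moved with sex: 6 of 7 tested were lower in females, with sums of 523 to 1274 CPM against 1247 to 3087 CPM in males. All 3 epididymis markers tested were also lower in females, with sums of 0.149 to 0.506 CPM against 1.39 to 62.4 CPM in males. The 1 pancreas marker tested was lower, with list sums of 10.1 to 37.6 CPM against 54.5 to 59.8 CPM. Of 7 skeletal muscle markers 3 were lower in females, while the median of the list's sum was 60.8 CPM in females and 27.2 CPM in males, where library 3 had 309 CPM. The share of all genes called lower in female WAT is not given here. Of 8 hepatocyte markers 1 was higher in females, against 13.6% of all genes, with sums of 982 to 2465 CPM in females and 200 to 672 CPM in males. Adipocyte markers summed to 27675 to 32868 CPM in females and 20198 to 25257 CPM in males. Their part in the members' values was not tested. Without the libraries with markers of other tissues, 1 member was called.

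Whether the sex difference itself differed between organs was tested as an interaction, a comparison added after the differences in each organ had been seen. It was below 0 for all 10 members, and 6 passed, against 11.5% of all genes called in that direction. The called members were mt-Nd1 (-0.58, SE 0.207, edgeR adjusted p = 0.0313), mt-Nd2 (-0.84, SE 0.217, edgeR adjusted p = 0.00302) and mt-Nd4 (-0.86, SE 0.226, edgeR adjusted p = 0.00373). The same held for mt-Nd5 (-0.81, SE 0.235, edgeR adjusted p = 0.00836), mt-Co1 (-0.78, SE 0.242, edgeR adjusted p = 0.0137) and mt-Cytb (-0.98, SE 0.257, edgeR adjusted p = 0.00366). These are log2 differences of the female minus male difference in liver from that in WAT. The count was 5 without WAT female vehicle library 3 or 7 or male vehicle library 12 of either organ, 7 without liver female vehicle library 7, and 4 without all libraries with markers of other tissues.

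**Figure D5:**
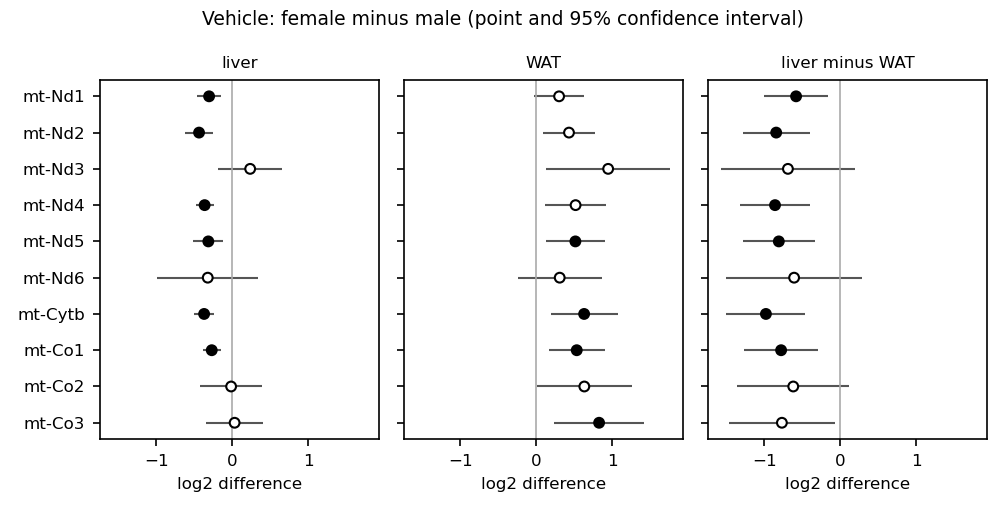
Log2 difference of female minus male under vehicle for each member (points) with its 95% confidence interval (lines), in liver, in WAT and as the liver difference minus the WAT difference. Filled points passed edgeR's adjusted threshold of 0.05: 6 below 0 in liver, 4 above 0 in WAT and 6 below 0 for the difference between organs.

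Between organs under vehicle, all 10 members were higher in liver, against 40.2% of all genes in that direction. The log2 differences lay between 1.21 (mt-Co2) and 1.63 (mt-Nd2), except mt-Nd6 with 3.80 (SE 0.243, edgeR adjusted p = 2.91e-18). The size depended on the scaling of libraries. The factors of the trimmed mean of M values lay between 0.676 and 0.789 in liver and between 1.25 and 1.54 in WAT. With library totals alone, the median of the members was 0.54 in place of 1.42 while that of all genes moved from -0.0904 to -0.97, and 9 members passed, mt-Co2 being lost (adjusted p = 0.094). Such a change of scaling moves all genes by about the same amount.

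Nuclear genes of the same complexes were described beside the members. Of 61 nuclear subunits of complexes I to IV, 14 were lower in male liver with PTP-r, against 2.45% of all genes called lower, with a median log2 difference of -0.14 beside -0.13 for the members. They were 7 of 36 complex I subunits, 2 of 4 of complex II, 4 of 9 of complex III and 1 of 12 of complex IV. Named by smallest p, these were Ndufa10 (-0.18, adjusted p = 0.0234), Ndufv1 (-0.21, adjusted p = 0.0268), Sdha (-0.17, adjusted p = 0.011), Uqcrc2 (-0.17, adjusted p = 0.0123) and Cox7c (-0.20, adjusted p = 0.0461). The count fell to 1 with library totals alone, where the median was -0.12. Of the 10 transcription genes 1 was lower, Tfb2m, a factor that opens mitochondrial promoters for the polymerase (-0.26, adjusted p = 0.0385). Of the 25 translation genes 1 was lower, the elongation factor Gfm1 (-0.20, adjusted p = 0.0455), a share close to that of all genes.

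In female WAT with PTP-r, where no gene passed edgeR's test, the fitted differences of the 61 nuclear subunits had a median of 0.22 beside 0.42 for the members. Averaged over the sexes in WAT, where 7.08% of all genes were called, 2 of 15 replication genes, 2 of 27 RNA processing genes and 1 of 12 biogenesis regulators were called. The mitochondrial DNA helicase Twnk was higher (0.29, adjusted p = 0.0171) and the nuclease Dna2 lower (-0.37, adjusted p = 0.0484). The RNA deadenylase Pde12 was lower (-0.23, adjusted p = 0.0443), and the tRNA modifier Gtpbp3 (0.15, adjusted p = 0.0475) and the deacetylase Sirt3 (0.32, adjusted p = 0.0464) were higher. The prohibitin genes Phb and Phb2 passed in no PTP-r comparison. The log2 differences of Phb were 0.02 and -0.12 in female and male liver and -0.03 and -0.07 in female and male WAT. Those of Phb2 were -0.01, -0.10, 0.18 and 0.01 in the same order, and the smallest adjusted p among all 8 was 0.139.

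The sex differences under vehicle included many nuclear subunits. In female liver 35 of 61 were lower, against 17.4% of all genes, with a median of -0.16 beside -0.31 for the members. Complex IV had 11 of 12 lower, among them Ndufa4 (-0.34, adjusted p = 5.56e-05) and Cox7a2 (-0.37, adjusted p = 0.000143), and complex I had 18 of 36, led by Ndufa10 (-0.32, adjusted p = 3.87e-05). With library totals alone 9 were lower and 1 higher, and the median of all genes moved from 0.0247 to 0.131. In WAT 44 of 61 were higher in females, against 13.6% of all genes, with a median of 0.39 beside 0.53 for the members. They included Uqcr11 of complex III (0.62, adjusted p = 0.0018), Sdhb of complex II (0.57, adjusted p = 0.00453) and Ndufb9 of complex I (0.58, adjusted p = 0.00229). Counts of nuclear subunits were not repeated with single libraries left out, on which the members' calls in WAT depended. Phb was lower in female liver (-0.25, adjusted p = 0.000825) and higher in female WAT (0.24, adjusted p = 0.0375), and Phb2 was higher in female WAT (0.23, adjusted p = 0.0388).

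Genes of mitochondrial RNA handling were counted as well. In female vehicle liver 11 of 27 RNA processing and stability genes were lower, against 17.4% of all genes, and 1 was higher. They included the exonuclease Rexo2 (-0.63, adjusted p = 5.34e-09), the RNase P subunit Hsd17b10 (-0.71, adjusted p = 2.61e-07) and Lrpprc, which stabilises mitochondrial messages (-0.34, adjusted p = 3.71e-05). In WAT, where 13.6% of all genes were higher in females, so were 8 of these 27, with Hsd17b10 at 0.54 (adjusted p = 0.00266). Of the 10 transcription genes 3 were higher in female WAT against the same share, Mterf4, Mterf3 and Tfb2m (0.41, 0.34 and 0.31, adjusted p = 0.00545, 0.00777 and 0.0252). Of the 15 genes of replication and nucleotide supply, 8 were higher and 1, Dna2, lower in female WAT (-1.22, adjusted p = 4.04e-05). For the interaction of sex and organ, 54 of the 61 nuclear subunits were below 0 and called, against 11.5% of all genes, with a median of -0.52 beside -0.77 for the members. Between organs under vehicle, 55 of the 61 were higher in liver and 3 lower, with a median of 0.85. With library totals alone the counts were 18 and 27 and the median was -0.03, beside the shift in the median of all genes from -0.0904 to -0.97 given above.

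The members varied together more closely in WAT than in liver. Over the 23 libraries of WAT, each member's deviation from its group mean correlated with the members' mean deviation at r between 0.75 (mt-Nd6) and 0.97 (mt-Co1), a description in which each member is part of the mean. In liver, r ran from 0.14 (mt-Nd3) to 0.73 (mt-Co1). The mean weighs all members equally on a log scale. In liver it includes the low mt-Nd6 value of female PTP-r library 1, 5.80 CPM against a group mean of 40.3 CPM. How far the liver correlations rest on that library was not tested. Outside the mitochondrial genome, the genes most like the members' mean in WAT, of 11409 ranked, were Gm29216 (r = 0.90), Gm28439 (0.89), Ralgapa2 (0.89), Gm13341 (0.88) and Gm13340 (0.88). All but Ralgapa2 are nuclear genes that share sequence with members. In liver, of 9561 ranked, they were Mcoln1 (0.86), Prpf18 (0.83), Carmil1 (0.82), Rpl4 (0.80) and Serinc1 (0.80). All these values come from libraries of 1 organ and describe likeness only.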

How the data were processed

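The deposited files hold counts, whole reads per gene in the layout of STAR's gene table, made by the authors with STAR 2.4.0i, HTSeq and build mm10, per the submitters' processing notes. The annotation release is not given in the sources used here. Of 55487 identifiers, 55227 matched GENCODE M21 (GRCm38, the same build as mm10). The column counted on the reverse strand was used, since it held 96.0% to 96.5% of stranded counts. Reads assigned to no gene (21.0% to 28.9% in liver, 18.4% to 28.7% in WAT) were left out of library sizes. Multimapping reads, which include those shared by mitochondrial genes and their nuclear copies, were 5.90% to 7.79% and 4.47% to 7.33% of reads. The liver libraries held 20266425 to 57518893 counts on genes, with a median of 36541828, and the WAT libraries held 20991069 to 32219751, with a median of 25260159. Library numbers are those of the titles. In 110 pairs of libraries within groups, the chi-square per degree of freedom was at least 12.5, so none agreed within sampling noise.

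Each organ's 4 groups were fitted together in edgeR 4.0.16 (R 4.3.3) with trimmed mean of M values (TMM) scaling, quasi-likelihood 2-sided F tests, and edgeR's expression filter (minima of 10 counts and 15 in total). This left 15892 genes in liver and 17765 in WAT. Comparisons between organs used all 46 libraries and 19135 genes. P-values were adjusted by Benjamini-Hochberg over all genes tested, with a threshold of 0.05, and errors of log2 differences are standard errors. Levels per kilobase use exon length and unscaled totals. The scripts were tested on simulated counts. Alternatives were DESeq2 1.42.0, limma 3.58.1 with voom and quality weights, other scalings and filters, unstranded counts, a replicate block and leaving out libraries. The named genes are all members, of each list up to 3 called genes with the smallest p, the prohibitins, and per organ the 5 genes most like the members with a mean of at least 5 CPM. The members and lists were chosen with earlier results of these data known. For marker lists, a library stood apart when its sum exceeded 4 times the organ's median and 40 CPM. Hepatocyte markers in liver and adipocyte markers in WAT were present in all libraries.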

Additional observations from a re-analysis of the deposited data

Results flagged for a closer look

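In 8 of 88 groups of libraries tested, 1 library lay far from the rest of its group, where chance gives about 1 in 20. The tests reuse the same libraries for several genes and for their sum, so they are not independent. Their count therefore does not measure an excess over that rate. In female vehicle liver, library 7 had the lowest mt-Nd5 level (3841 CPM) and the highest mt-Co2 (38.7 CPM) and mt-Co3 (26.3 CPM). In male PTP-r WAT, library 1 was highest for mt-Nd3 (2.47 CPM), mt-Co2 (30.7 CPM) and mt-Co3 (16.2 CPM). In female PTP-r liver, library 11 was highest for mt-Nd4 (4785 CPM), and in male vehicle liver, library 9 was highest for mt-Co3 (24.01 CPM). Of these 8 values, 6 belong to the genes with near-complete nuclear copies.

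The female minus male difference under vehicle differed between liver and WAT, by an interaction term in edgeR with adjusted p-values given in the report, for mt-Nd1 (-0.58), mt-Nd2 (-0.84), mt-Nd4 (-0.86), mt-Nd5 (-0.81), mt-Co1 (-0.78) and mt-Cytb (-0.98).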

How the results depend on the processing

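No called value of the 10 members changed sign under any alternative run. Counts of members called moved as follows. In male liver with PTP-r, the count of 0 became 3 with DESeq2 and 1 with limma voom, without libraries with markers of other tissues and with only the 2 groups fitted. The liver libraries with such markers were all female, so no male library was left out there. Leaving out 1 library gave 0 to 1. For the mean of the sexes in liver, 0 became 2 with DESeq2 and 2 with voom, and 1 with unstranded counts, without other-tissue libraries and with library totals only; leaving out 1 library gave 0 to 1. For females minus males in WAT under vehicle, 4 became 0 with no expression filter, 1 without other-tissue libraries and 2 with library totals only, and leaving out 1 library gave 0 to 7. For the liver response minus the WAT response, 0 became 3 with voom and 1 without other-tissue libraries. The cause was not tested. Among values of single members under the alternatives, 1108 stayed on their side of the threshold, 12 passed it and 47 lost it.

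Replicate numbers were not taken to pair the samples, since no label says so and not every pair correlated at over 0.1. Same-numbered libraries of the 2 treatments correlated at -0.287 to 0.149 in liver and -0.114 to 0.208 in WAT (5 pairs each). Liver and WAT libraries with the same title number correlated at -0.0864 to 0.227 (23 pairs, median 0.0604, 6 over 0.1 and 0 under -0.1), and 10 of 23 liver libraries correlated best with the WAT library of their own number, a hint of pairing from the data and not from the design. With a replicate block the count was 6 in liver and 5 in WAT for the sexes under vehicle, 10 between organs, 5 for the interaction of sex and organ, and 0 in the PTP-r comparisons. Precision is limited by nuclear copies for mt-Nd3, mt-Co2 and mt-Co3, whose medians in WAT were far below those of the other members except mt-Nd6, and by the spread between WAT libraries.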

Other observations

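The mitochondrial protein-coding genes outside the 10 behaved as values beside them. Under vehicle, mt-Atp8, mt-Nd4l and mt-Atp6 were higher in female than in male WAT (log2 differences 1.09, 0.91 and 0.81, edgeR adjusted p = 0.0311, 0.0436 and 0.0443). In that direction 13.6% of all genes were called. How much of the sequence of mt-Atp8, mt-Nd4l and mt-Atp6 is shared with nuclear copies was not measured. Their calls were not repeated with single libraries left out, on which the members' calls in WAT depended. The tRNA genes mt-Tp and mt-Tw were lower in female than in male liver (-1.57 and -0.50, edgeR adjusted p = 0.0164 and 0.0176), from 5 tRNA genes tested of 22. Of all genes, 17.4% were called lower there. Of the 7 chromosome 1 copies, 4 were higher in female than in male WAT, against 13.6% of all genes, among them Gm29216 (0.74, edgeR adjusted p = 0.0431). Gm29216 shares its sequence with the end of mt-Co1, and whether mitochondrial reads were counted on the copies was not tested.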
